A study of Mus musculus with 5 samples.

Results

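The genes described here encode the chaperones, folding enzymes and regulators that keep proteins folded in the endoplasmic reticulum (ER), the cytosol and the mitochondria, 35 in all, of which 22 belong to the ER group and 13 to the heat shock group. They were taken as a named list and looked up in the deposited expression values, where each gene was read from its brightest probe set by mean value. Of the 18193 genes with a probe set of a single gene symbol, 9621 had a value at or above 2.75 on at least 1 array, the 60th percentile of all values, and were kept. All 22 ER members were among them. In the heat shock group 9 of 13 were kept. Hspa1a and Hspa1b lay below that level on every array, and Hsp90ab1 and Hsf1 had no probe set named for them and were not analysed here.

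RNA came from 32D cells, a mouse myeloid progenitor line that depends on interleukin-3, made to carry a FLT3-ITD construct by stable retroviral transduction. FLT3-ITD is a form of the receptor tyrosine kinase FLT3 made active without its ligand by an internal tandem duplication. The 5 groups were 32D cells carrying ITD613, ITD78, ITD598, ITD602 or ITD611, names whose numbers the labels do not explain. All 5 had been starved for 3 h and then treated for 1 h with a tyrosine kinase inhibitor (TKI) that the labels do not name, and no untransduced or untreated array was analysed here. Each group is 1 Affymetrix array of a transduced cell pool or clone (the labels do not say which), which allows no test and no p-value. An SD given here describes how the other 4 constructs vary (n = 4 arrays) and is not a replicate error.

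In the ER, misfolded proteins bind the chaperone Hspa5 (BiP), which releases 3 sensors encoded by Ern1, Eif2ak3 and Atf6. Ern1 splices the mRNA of the transcription factor Xbp1, Atf6 is cut to free a transcription factor, and Eif2ak3 slows translation while raising Atf4, the inducer of Ddit3 and Trib3. Spliced Xbp1 and cut Atf6 switch on ER chaperones, protein disulfide isomerases and the machinery of ER-associated degradation, largely through a promoter sequence called the ER stress element. In the cytosol, the heat shock factor Hsf1 switches on HSP70, HSP90 and J-protein genes through the heat shock element. Secretory cells such as plasma cells keep the ER programme high, and granule-making myeloid cells also route much of their protein through the ER.

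The promoter sequences of the members, from 250 bases before to 50 bases after the transcription start (RefSeq, GRCm38.p6), were searched on both strands for the elements of these pathways. An entry was found for 27 of the 35 members, and there was none for Hyou1, Manf, Atf6, Hspa8, Hspa9, Hsp90aa1, Hsp90ab1 and Hsf1. The ER stress element (CCAAT, 9 bases, then CCACG) was found in 8 of the 19 ER members with a promoter, against 0.119% of all 32851 promoters. Both groups were listed as genes of the pathways that use these elements. A share above that of all promoters follows in part from this choice and is not a result of these arrays. The sites are shown here for comparison, read in the direction of the ER stress element. Its fixed letters are in capitals and the 9 bases between them in lower case. Hsp90b1 holds 2 of them.
Creld2: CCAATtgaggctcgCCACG
Pdia6: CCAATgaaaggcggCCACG
Hspa5: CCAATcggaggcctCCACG
Calr: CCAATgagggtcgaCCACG
Hsp90b1 (first site): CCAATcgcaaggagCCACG
Hsp90b1 (second site): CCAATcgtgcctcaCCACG
Canx: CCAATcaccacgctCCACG
Dnajc3: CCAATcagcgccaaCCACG
Syvn1: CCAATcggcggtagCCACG

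A second form of the element (ATTGG, 1 base, then CCACG) was found in Herpud1 and Dnajb11, 2 of the 19 ER members, against 0.0365% of all promoters. The XBP1 site (TGAC followed by GTGG) was found in 0 of the 19, against 0.676% of all promoters, and the ATF4 site (TGATG, 1 base, then AA) in Herpud1 alone, against 3.97%. In the heat shock group, 4 of 13 promoters of 8 genes held a heat shock element (GAA, 2 bases, TTC, 2 bases, GAA, or the same starting with TTC), against 0.603% of all promoters. These were the promoters of Hspd1 and Hspe1 and both listed starts of Hsph1, while 0 of the ER promoters held one. The windows of both Hsph1 starts overlap and hold the same bases, and so do those of Hspd1 and Hspe1. The 4 matches are therefore not independent. A match of letters is a description and does not show that a factor bound there, and no match says only that these letters are not in the window.

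The promoters of Hspa5 and Creld2 are printed in full because they carry the ER stress element and belong to members that were low on the ITD613 array. Those of Hspd1 and Hsph1 are printed because they carry the heat shock element and their genes lay on opposite sides of the other arrays there. Capitals mark the elements, and each sequence runs 5′ to 3′ on the gene's own strand.
Hspa5, chr2:34771840-34772139, plus strand: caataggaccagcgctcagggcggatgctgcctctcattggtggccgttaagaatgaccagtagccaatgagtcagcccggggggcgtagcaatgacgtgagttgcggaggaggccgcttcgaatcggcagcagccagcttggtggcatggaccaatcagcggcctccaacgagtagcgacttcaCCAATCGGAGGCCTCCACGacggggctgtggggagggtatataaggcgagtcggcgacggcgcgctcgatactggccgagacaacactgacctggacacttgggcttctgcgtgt
Creld2, chr15:88819396-88819695, plus strand: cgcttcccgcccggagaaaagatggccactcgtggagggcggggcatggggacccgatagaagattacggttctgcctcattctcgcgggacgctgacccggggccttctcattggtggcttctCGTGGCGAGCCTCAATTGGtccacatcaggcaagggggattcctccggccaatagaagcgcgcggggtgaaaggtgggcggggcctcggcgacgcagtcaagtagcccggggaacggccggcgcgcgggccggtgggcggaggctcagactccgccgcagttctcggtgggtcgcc
Hspd1, chr1:55087883-55088182, minus strand: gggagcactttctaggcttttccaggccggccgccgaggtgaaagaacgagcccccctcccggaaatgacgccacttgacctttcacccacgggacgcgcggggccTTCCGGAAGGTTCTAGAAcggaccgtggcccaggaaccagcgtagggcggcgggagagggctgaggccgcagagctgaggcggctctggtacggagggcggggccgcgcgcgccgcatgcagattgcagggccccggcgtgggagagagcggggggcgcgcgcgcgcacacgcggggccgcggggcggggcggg
Hsph1, chr5:149636287-149636586, minus strand: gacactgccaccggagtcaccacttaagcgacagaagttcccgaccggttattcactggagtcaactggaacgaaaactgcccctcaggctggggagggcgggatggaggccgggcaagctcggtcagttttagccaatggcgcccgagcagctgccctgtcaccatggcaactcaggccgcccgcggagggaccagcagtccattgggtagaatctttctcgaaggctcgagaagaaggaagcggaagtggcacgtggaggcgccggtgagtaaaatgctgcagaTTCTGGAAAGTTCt

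Hspd1 and Hspe1, which encode the mitochondrial chaperonin and its lid, start from the same stretch of DNA in opposite directions. The windows of the pair overlap, and the 2 overlapping heat shock elements marked in Hspd1 are the same bases as those found in Hspe1. They are therefore 1 sequence and not independent matches.

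The ER chaperone and folding genes were low on the ITD613 array and, for many members, highest on the ITD602 array. On ITD613 the median ER member lay at -0.27 (log2) relative to the average of the remaining arrays, where the median of all 9621 genes was 0.01. The ER medians of the other arrays, each against the remaining 4, were -0.05 on ITD78, 0.07 on ITD598, 0.26 on ITD602 and 0.15 on ITD611. These 5 differences share arrays and are not independent. Without the ITD613 array the ER medians were -0.16 on ITD78, -0.02 on ITD598, 0.17 on ITD602 and 0.01 on ITD611, and without the ITD602 array that of ITD78 was 0.01. That of ITD613 stayed between -0.31 and -0.26 with any other array left out. The heat shock group had 5 of 9 members below and 4 above the mean of the other arrays on ITD613, where 47.7% of all genes were below. Its medians were -0.06 on ITD613, -0.17 on ITD78, 0.13 on ITD598, 0.03 on ITD602 and 0.16 on ITD611. With the mean of all probe sets the heat shock medians were 0.04 on ITD613 and -0.07 on ITD602, both of the other sign. Above the mean of the other arrays were 7 of 9 heat shock members on ITD598 and 8 of 9 on ITD611, against 48.5% and 45.2% of all genes. ITD78 was below ITD598 in 8 of 9 and below ITD611 in 8 of 9, against 50.6% and 47.9% of all genes. For scale, the differences of all genes between the closest pair of arrays, ITD598 and ITD611, had an SD of 0.18. For the pairs with ITD613 this SD was wider, 0.42 (with ITD78) to 0.63 (with ITD602). On ITD613 the lower and upper quartiles of all genes were -0.20 and 0.27 against the mean of the other arrays.

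On ITD613, 18 of 22 ER members lay below the mean of the other 4 arrays, where 47.7% of all genes did. The ITD613 value was the lowest of the 5 for 14 of 22 members, against 29.4% of all genes. At least 0.5 (log2) below that mean were 8 ER members, against 9.51% of all genes, and 1 of them, Edem1, was 2-fold lower, against 2.35% of all genes. The count of 8 was 5 when all probe sets of a gene were averaged, and 5 of 18 when probe sets ending in _x_at, _s_at or _a_at were left out. None of the 22 was 0.5 higher, against 12.6% of all genes. The position of the members relative to all genes shows in the cumulative plot.

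**Figure D1:**
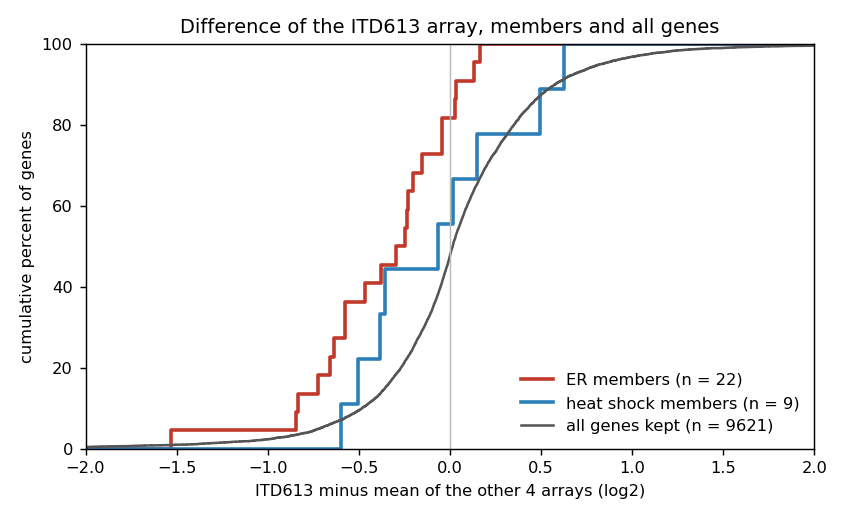
Cumulative percent of genes (vertical axis) by the difference of the ITD613 array from the mean of the other 4 arrays (horizontal axis, log2, drawn from -2 to 2) for the 22 ER members, the 9 heat shock members kept and all 9621 genes kept. The ER curve lies left of that of all genes, with medians of -0.27 and 0.01, and the heat shock curve crosses it.

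Among the ER chaperones, Hspa5, the HSP70 of the ER, read 9.93 on ITD613, against 10.32 on ITD78, 10.44 on ITD598, 10.63 on ITD602 and 10.64 on ITD611 (log2 RMA values here and below). The ITD613 level was 0.58 below the mean of the others, 10.51 ± 0.16 (SD), a ratio of 0.670, and ITD78 lay between ITD613 and the remaining 3. All 3 probe sets of Hspa5 were lower on ITD613. Its nucleotide exchange factor Hyou1 read 5.80 on ITD613, against 6.54, 6.62, 6.83 and 6.60 on ITD78, ITD598, ITD602 and ITD611. For this gene the 4 other arrays lay within 0.30 of each other and ITD613 was 0.73 below the nearest of them. Its difference of -0.84 on ITD613 was -0.46 with the mean of its probe sets, which include a dim probe set below 2.75 on every array.

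The glycoprotein lectin chaperones Calr and Canx differed by unequal amounts. Calr read 9.98 on ITD613, against 10.35, 10.46, 10.74 and 10.68 on ITD78, ITD598, ITD602 and ITD611, with all 3 probe sets lower by similar amounts on ITD613. Canx read 9.82 on ITD613, against 9.98, 10.02, 10.01 and 10.18 on ITD78, ITD598, ITD602 and ITD611. This difference of -0.23 came from the brightest of its probe sets, and the other 2 gave -0.44 and -0.87, so its size depends on the probe set while its sign does not. Hsp90b1, the HSP90 of the ER, read 9.19 on ITD613, with ITD602 next at 9.31 and ITD78, ITD598 and ITD611 at 9.55, 9.52 and 9.55, and so was not highest on ITD602.

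Creld2 and Manf, small ER proteins that are induced with BiP, followed the pattern of Hyou1. Creld2 read 5.76 on ITD613, against 6.31 on ITD78, 6.57 on ITD598, 6.87 on ITD602 and 6.62 on ITD611. Manf read 7.64 on ITD613, against 8.07, 8.30, 8.49 and 8.27 on ITD78, ITD598, ITD602 and ITD611. In both, ITD613 was lowest, ITD78 second lowest and ITD602 highest. Sdf2l1, which works with the J-protein Dnajb11, read 7.23 on ITD613 and 7.50 to 7.80 on the others, and Dnajb11 itself read 7.42 on ITD613 and 7.55 to 7.80 on the others.

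The other ER J-proteins differed from it in part. Dnajb9, a J-protein that represses the sensor Ern1, read 6.34 on ITD613, 6.45 on ITD78, 6.18 on ITD598, 5.96 on ITD602 and 6.12 on ITD611. Its order is nearly the reverse of that of Creld2, with ITD78 highest and ITD602 lowest. Dnajc3, which also binds the kinase Eif2ak3, ranged over 0.18 on its brightest probe set, from 7.01 on ITD602 to 7.19 on ITD78. All 4 of its probe sets above the low-value level were lower on ITD613 than the mean of the others, and 1 of the dimmer ones read 6.16 on ITD613, against 6.67 to 6.78 on the others. With the mean of its probe sets the ITD613 difference of Dnajc3 was -0.25 in place of -0.04.

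**Figure D2:**
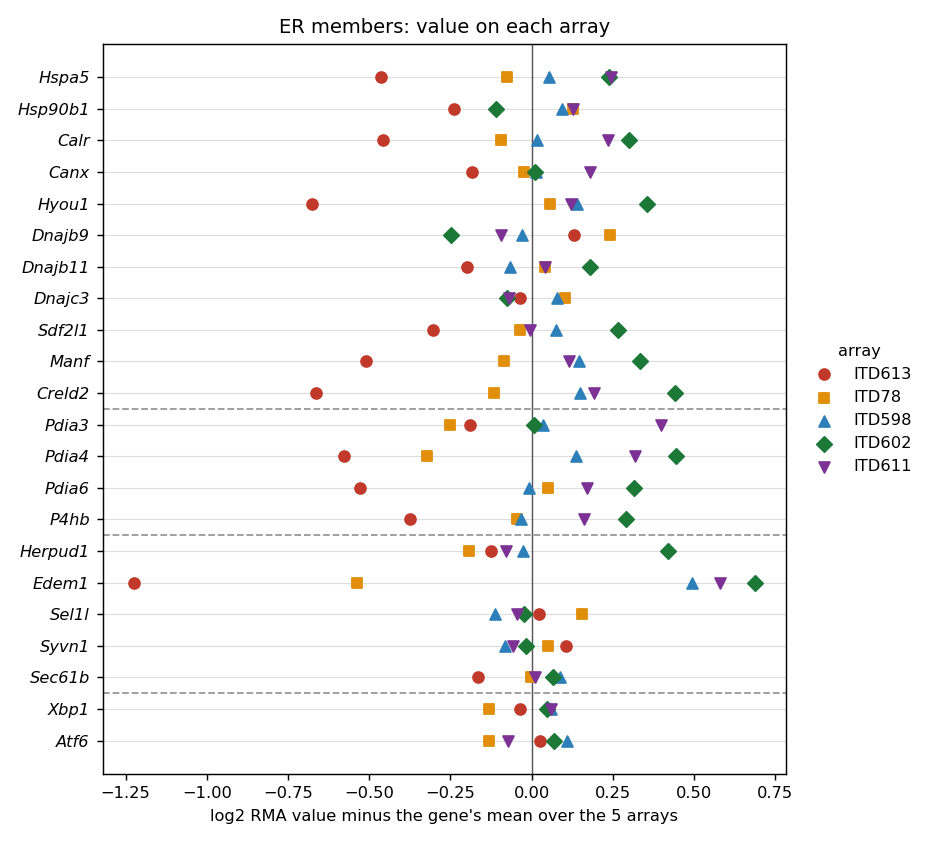
Log2 RMA value of each ER member on each of the 5 arrays, minus the gene's mean over the 5 arrays (horizontal axis), with 1 row per gene and dashed lines between chaperones, disulfide isomerases, degradation and translocation genes, and regulators. The ITD613 points are leftmost for 14 of 22 genes, and the ITD602 points are rightmost for 11. The furthest ITD613 point is that of Edem1, whose value before the gene's mean is subtracted is 4.73.

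The 4 protein disulfide isomerases, which form and reshuffle the disulfide bonds of secretory proteins, were all below the mean of the other arrays on ITD613, with differences from -0.72 to -0.24. Pdia4 read 5.06 on ITD613, against 5.31 on ITD78, 5.77 on ITD598, 6.08 on ITD602 and 5.95 on ITD611. Pdia6 read 7.14 on ITD613, against 7.72, 7.67, 7.99 and 7.84 on ITD78, ITD598, ITD602 and ITD611. With the mean of all probe sets the ITD613 difference was -0.33 in place of -0.72 for Pdia4 and -0.39 in place of -0.66 for Pdia6. The other probe set of each gene, which enters that mean, was below 2.75 on every array. ITD78 was near ITD613 for Pdia4 but among the other arrays for Pdia6. P4hb read 9.09 on ITD613 and 9.42 to 9.75 on the others. Pdia3, the isomerase that works with Calr and Canx, was lowest on ITD78 (7.79) and next on ITD613 (7.85), and highest on ITD611 (8.44).

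Edem1, which hands misfolded glycoproteins to degradation, had the widest range of all members. It read 4.73 on ITD613, against 5.42 on ITD78, 6.45 on ITD598, 6.65 on ITD602 and 6.54 on ITD611. The ITD613 level was a ratio of 0.346 of the geometric mean of the others, and 0.69 below ITD78, and the 4 other arrays ranged over 1.22. Its other probe set read 5.15 on both ITD613 and ITD78, against 5.66, 5.88 and 5.86 on ITD598, ITD602 and ITD611. That probe set gave a difference of -0.49 on ITD613, so the direction was shared by both and the size was not.

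Of the other degradation and translocation members, Herpud1, a scaffold of the degradation complex, ranged over 0.61 and the rest over less than 0.5. Herpud1 was highest on ITD602 at 5.94, against 5.40 on ITD613, 5.33 on ITD78, 5.49 on ITD598 and 5.44 on ITD611. Syvn1, the ubiquitin ligase of the complex, read 5.86 on ITD613 and 5.67 to 5.80 on the others, and Sel1l, its partner, read 6.32 on ITD613 and 6.19 to 6.45 on the others. For Sel1l the 2 dimmer probe sets kept were lower on ITD613, opposite to the brightest. Sec61b, a subunit of the translocation channel, read 9.68 on ITD613 and 9.84 to 9.93 on the others.

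The transcription factor genes Xbp1 and Atf6 were nearly level in total mRNA by their brightest probe sets. Xbp1 read 8.78 on ITD613, 8.68 on ITD78, 8.88 on ITD598, 8.86 on ITD602 and 8.88 on ITD611, and its probe sets were not told apart here by spliced and unspliced form. Atf6 read 4.85, 4.69, 4.93, 4.89 and 4.75 on ITD613, ITD78, ITD598, ITD602 and ITD611. Its 2 dimmer probe sets gave differences of -0.28 and -0.68 on ITD613, where the one used gave 0.03, so the level of Atf6 on ITD613 is uncertain.

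Of 10 sensor and effector genes that are not among the 35, 9 were kept, with a median difference of 0.16 on ITD613. At least 0.5 higher were 3 of them, Ern1, Ddit3 and Trib3, against 12.6% of all genes, and 1, Atf4, was at least 0.5 lower. The differences of the other 5, Eif2ak3, Ppp1r15a, Creb3, Mbtps1 and Mbtps2, ran from -0.17 to 0.24. Ern1 read 5.84 on ITD613, against 4.98, 4.57, 4.74 and 4.69 on ITD78, ITD598, ITD602 and ITD611. Ddit3, a transcription factor that favours cell death under lasting stress, read 5.68 on ITD613, against 5.09, 4.54, 4.35 and 4.20 on ITD78, ITD598, ITD602 and ITD611. Trib3, a pseudokinase induced by Atf4 and Ddit3, read 6.36 on ITD613, against 5.38, 5.21, 4.98 and 4.87 on ITD78, ITD598, ITD602 and ITD611. In all 3 genes ITD78 was second to ITD613. Atf4 mRNA read 8.27 on ITD613 and 8.87 to 9.21 on the others, and Eif2ak3 read 5.67 on ITD613 and 5.40 to 5.60 on the others. With the mean of all probe sets the ITD613 difference of Ern1 was 0.26 in place of 1.09, and that of Ddit3 was 0.52 in place of 1.14.

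**Figure D3:**
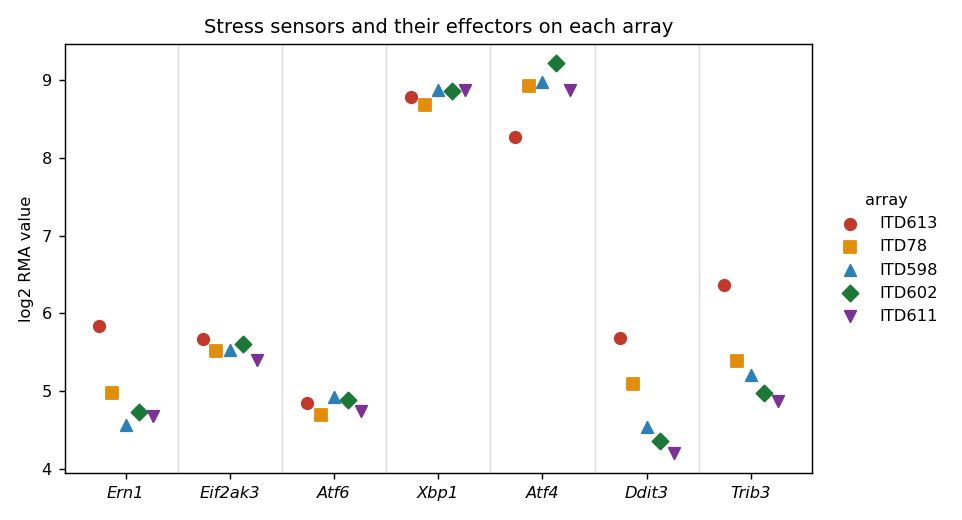
Log2 RMA values (vertical axis) of the sensor genes Ern1, Eif2ak3 and Atf6 and of Xbp1, Atf4, Ddit3 and Trib3 on each of the 5 arrays, to be compared within a gene and not between genes. ITD613 is highest for Ern1 (5.84), Ddit3 (5.68) and Trib3 (6.36) and lowest for Atf4 (8.27), and the Xbp1 and Atf6 points lie close together.

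Other genes of the ER, from lists of folding and redox enzymes, degradation factors and the translocation channel, were less uniform. Of these 48 genes 42 were kept, and on ITD613 their median difference was -0.06, with 6 at least 0.5 lower and 2 at least 0.5 higher, against 9.51% and 12.6% of all genes. The 13 translocation genes kept had a median of -0.34 on ITD613, with 11 below the mean of the other arrays (47.7% of all genes), whereas the 14 degradation genes had a median of 0.07. Sec61a1, the channel itself, read 9.16 on ITD613, against 9.70, 10.05, 10.21 and 10.03 on ITD78, ITD598, ITD602 and ITD611. Selenos, a degradation factor of the ER membrane, read 7.53 on ITD613, against 8.22, 8.59, 8.74 and 8.57 on the same 4 arrays, and Pdia5, another disulfide isomerase, read 4.60 on ITD613 and 5.15 to 5.75 on the others. All 3 were lowest on ITD613 and highest on ITD602, as many of the chaperones were. With the mean of its probe sets the ITD613 difference of Sec61a1 was -0.48 in place of -0.84.

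The ITD602 array held the highest value for 11 of 22 ER members, against 29.5% of all genes. The ER median of 0.26 on ITD602 was 0.11 with probe sets ending in _x_at, _s_at or _a_at left out, which removes 4 members. Of the 22, 4 were at least 0.5 above the mean of the other arrays on ITD602, against 4.39% of all genes: Edem1 (0.86), Creld2 (0.55), Pdia4 (0.55) and Herpud1 (0.53). For Edem1, Creld2 and Pdia4 the low ITD613 value is part of that mean. Herpud1 was 0.45 above the nearest other array, and Creld2 was 0.25 above it. Against ITD598 and ITD611, the arrays closest to it, ITD602 was not 0.5 higher or lower for any of the 22 members, where 3.88% and 2.88% of all genes were at least that far apart. The ITD602 array carries another date-like string in its title than the rest and reads the spiked-in bioB control at 5.96, against 2.53 on ITD613, 2.42 on ITD78, 2.23 on ITD598 and 2.82 on ITD611. The part of either in its values was not tested.

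ITD78 came next to ITD613 for many ER members. With ITD613 set aside, ITD78 was the lowest of the remaining 4 arrays for 15 of 22 ER members and for 6 of the 9 heat shock members, against 34.3% of all genes. Directly compared, ITD613 was below ITD78 in 17 of 22 ER members, with a median of -0.25, where 43.4% of all genes were below and their median was 0.03. ITD613 was also below ITD602 in 18 of 22, against 49.1% of all genes, with a median of -0.46. At least 2-fold lower were 4 of these, Edem1, Creld2, Hyou1 and Pdia4, against 3.92% of all genes. These 4 were also the ER members whose values ranged over 1 or more across the 5 arrays, against 10.4% of all genes. Only Edem1 of the 22 ranged that far without ITD602, against 8.39% of all genes, or without ITD613, against 3.06%. A range of at least 0.5 was found in 12 of 22 ER members and 5 of 9 heat shock members, against 41.1% of all genes, and without ITD613 in 5 and 0, against 18.2% of all genes.

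On ITD613, 3 of the 9 heat shock members were highest (Hsph1, Dnajb1 and Dnaja1), a share near the 35.7% of all genes. Lowest there were 4 of 9, the mitochondrial members and the cytosolic Hspa4, against 29.4% of all genes. Hsph1, a nucleotide exchange factor of HSP70, read 9.13 on ITD613, against 8.33 on ITD78, 8.64 on ITD598, 8.77 on ITD602 and 8.83 on ITD611. ITD613 was highest and ITD78 lowest, and its other probe set kept this order at both ends (7.61 on ITD613, 6.75 on ITD78 and 6.98 to 7.37 on the rest). Dnajb1, the J-protein that starts the HSP70 cycle and is a classic target of Hsf1, read 7.81 on ITD613, against 7.42, 7.14, 7.14 and 7.06 on ITD78, ITD598, ITD602 and ITD611. The difference of 0.62 rested on 1 probe set, since its other one read 5.98 on ITD613 and 6.09 to 6.24 on the others. Dnaja1, a related J-protein, read 9.54 on ITD613 and 9.21 to 9.51 on the others, with all 3 probe sets higher on ITD613.

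Hspa4, a relative of Hsph1 with the same role, gave opposite answers by probe set. The brightest read 8.82 on ITD613, against 9.27, 9.47, 9.42 and 9.50 on ITD78, ITD598, ITD602 and ITD611. The next read 7.99 on ITD613, against 7.52, 7.38, 7.35 and 7.48, and another read 4.86 on ITD613, against 3.78, 3.86, 4.02 and 4.28, on the same 4 arrays. The direction for Hspa4 is therefore not settled, and with the mean of its 4 probe sets the difference was 0.22 in place of -0.60.

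**Figure D4:**
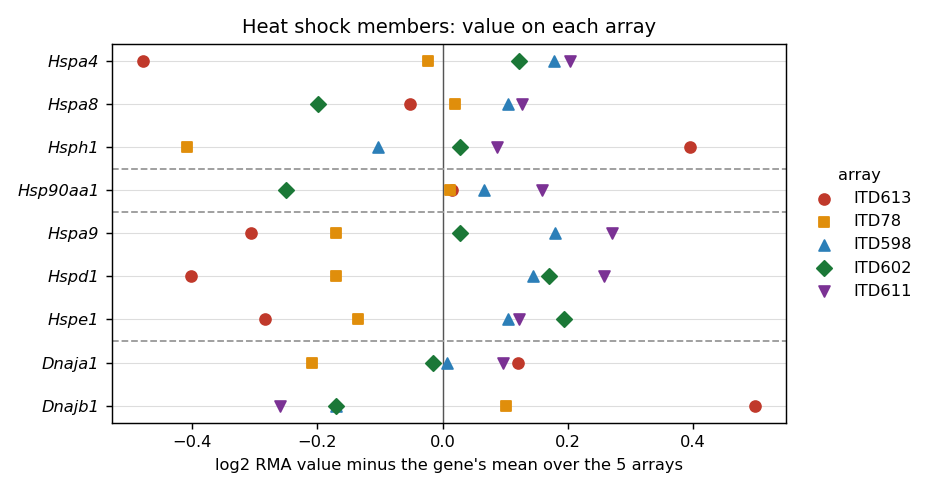
Log2 RMA value of each of the 9 heat shock members kept on each of the 5 arrays, minus the gene's mean over the 5 arrays (horizontal axis), with 1 row per gene and dashed lines between the HSP70 family, HSP90, mitochondrial and J-protein members. ITD613 is rightmost for Hsph1, Dnaja1 and Dnajb1 and leftmost for Hspa4, Hspa9, Hspd1 and Hspe1.

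The abundant cytosolic chaperones were nearly level on ITD613. Hspa8, the HSP70 present in all cells, read 11.76 on ITD613, 11.83 on ITD78, 11.91 on ITD598, 11.61 on ITD602 and 11.94 on ITD611. Hsp90aa1, the inducible HSP90, read 11.51, 11.51, 11.56, 11.25 and 11.66 on ITD613, ITD78, ITD598, ITD602 and ITD611. Both were lowest on ITD602. A further Hspa8 probe set was lower there by 0.87 (9.56, against 10.39 to 10.46 on the others), as was a Dnaja1 probe set by 0.90 (7.02, against 7.77 to 7.98), while the remaining probe sets of these genes gave differences from -0.25 to 0.20 on ITD602. The stress-inducible HSP70 genes Hspa1a and Hspa1b, which are nearly identical in sequence, read at most 0.67 and 1.04 on any array, below the level of 2.75, so their differences say little about size.

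The 3 mitochondrial members were each lowest on ITD613. Hspd1, the chaperonin, read 10.29 on ITD613, against 10.52 on ITD78, 10.84 on ITD598, 10.86 on ITD602 and 10.95 on ITD611. Its partner Hspe1 read 9.96 on ITD613 and 10.10 to 10.43 on the others, and Hspa9, the HSP70 of mitochondria, read 8.59 on ITD613 and 8.73 to 9.17 on the others. In all 3 ITD78 was second lowest, and ITD598, ITD602 and ITD611 formed the upper end. All 6 probe sets kept for these genes had this sign on ITD613. Over the whole heat shock group, 2 of 9 members (Hspa4 and Hspd1) were at least 0.5 lower on ITD613 and 1 (Dnajb1) at least 0.5 higher, against 9.51% and 12.6% of all genes. Of the 2, only Hspa4 remained past 0.5 without ITD598, without ITD602 or without ITD611.

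Of the other cytosolic and mitochondrial chaperones, 37 of 45 were kept, and on ITD613 they had a median difference of 0.00, with 0 at least 0.5 lower and 2 at least 0.5 higher, against the same 9.51% and 12.6%. All 8 subunits of the cytosolic chaperonin TRiC were below the mean of the other arrays on ITD613, against 47.7% of all genes. Their differences ran from -0.34 to -0.05, and none reached 0.5. Dnajb2, a J-protein that leads clients to the proteasome, had the widest range, with 4.78 on ITD613, against 3.35 on ITD78, 2.80 on ITD598, 2.93 on ITD602 and 2.73 on ITD611. At values up to 3.74, 100 or more probe sets on 1 array can have an identical value, and with low values raised to 3.74 the difference of Dnajb2 was 1.04 in place of 1.82.

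Over all probe sets rather than genes, 38 of the 43 kept for the ER members were below the mean of the other 4 arrays on ITD613, and 10 of the 24 kept for the heat shock members, against 49.6% of all 16694 probe sets kept. Probe sets of a gene share its RNA and are not replicates. Among ER members with more than 1 kept probe set, the sign was the same in all of them for Hspa5, Hsp90b1, Calr, Canx, Hyou1, Dnajc3, Herpud1, Edem1 and Xbp1, each lower on ITD613, and for Syvn1, higher there.

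**Figure D5:**
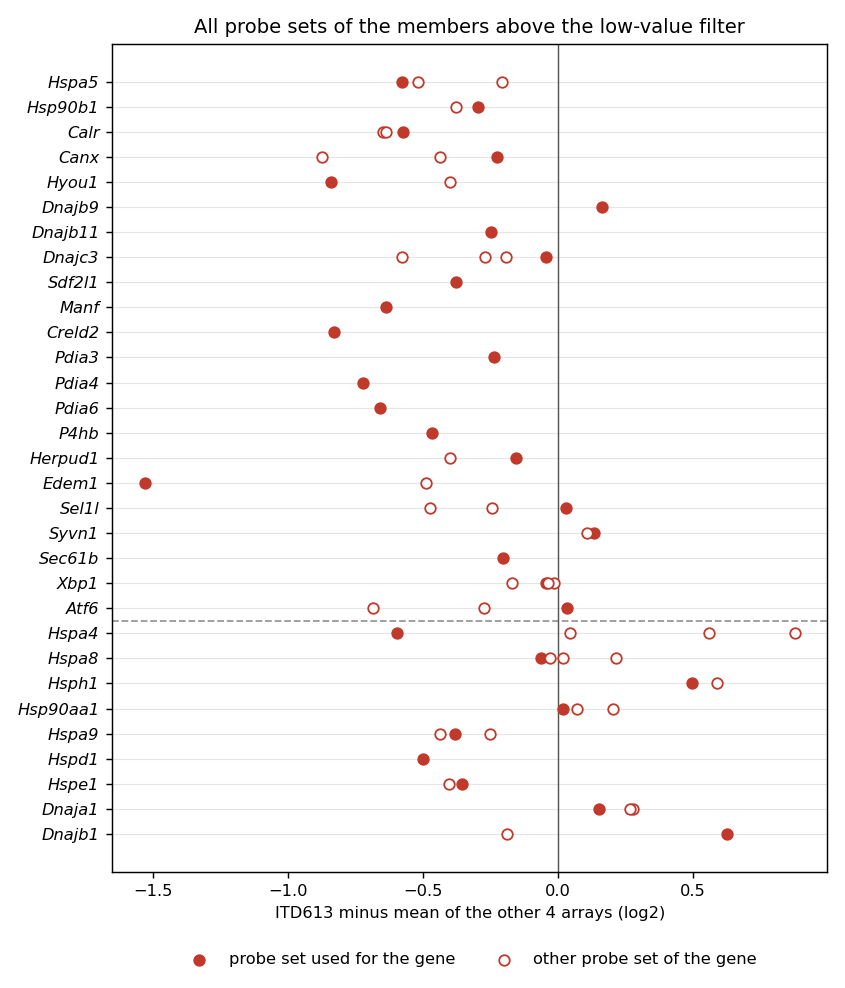
Difference of ITD613 from the mean of the other 4 arrays (horizontal axis, log2) for every probe set of the members above the low-value level, with filled points for the probe set that stands for its gene, open points for its other probe sets and a dashed line between the ER and heat shock members. Of the ER probe sets 38 of 43 lie left of 0, and those of Hspa4 lie on both sides.

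Members with and without an ER stress element of either form overlapped in their differences on ITD613. The 10 ER members that hold one had a median difference of -0.27, from -0.83 (Creld2) to 0.13 (Syvn1), and 4 of them were at least 0.5 lower. The 9 with a promoter entry and no element had a median of -0.24, from -1.53 (Edem1) to 0.16 (Dnajb9), and 2 were at least 0.5 lower. The 3 without a promoter entry, Hyou1, Manf and Atf6, had a median of -0.64, and 2 were at least 0.5 lower. Of all genes 9.51% were at least 0.5 lower. Of the heat shock members that hold a heat shock element, Hsph1 was 0.49 higher, and Hspd1 and Hspe1 were 0.50 and 0.36 lower.

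Some lineage markers were lowest or highest on ITD613, and not all other features read here followed the ER values. Of 10 myeloid progenitor markers 7 were kept, and 5 of these (Ctsg, Prtn3, Spi1, Csf2rb and Ptprc) were lowest on ITD613, against 29.4% of all genes. Mpo was lowest on ITD78 (4.52, against 5.18 on ITD613), and Il3ra was highest on ITD613 (3.69, against 3.50 to 3.66 on the others). Elane, Cebpa and Kit were below 2.75 on every array but are part of the sum that follows. The summed log2 level of all 10 was 43.6 on ITD613, against 46.0, 52.8, 53.7 and 51.2 on ITD78, ITD598, ITD602 and ITD611. The erythroid factors Klf1 and Gata1 were highest on ITD613, with a summed level of the 3 erythroid markers of 19.4 there, against 13.6 to 16.5 on the others. Hba-a1, which is part of that sum, was below 2.75 on every array. Of the markers of plasma and B cells, Jchain, Cd79a and Sdc1 were below 2.75 on all 5 arrays, and Ighm and Mzb1 were kept. Ighm read 4.69 on ITD613 and 4.69 to 4.97 on the others. Mzb1 read 3.18 on ITD613, against 2.94, 2.74, 2.28 and 2.74 on ITD78, ITD598, ITD602 and ITD611. It was highest on ITD613 and lowest on ITD602, but all these values lie below 3.74 and its differences are not sized. On ITD598, ITD602 and ITD611 it was below 2.75. The summed level of the 5 genes was 12.9 on ITD613 and 13.0 to 13.5 on the others. The 4 fibroblast markers were below 2.75 on every array, and 1 of 3 T cell markers (Cd4) and 1 of 3 endothelial markers (Pecam1) reached it. The 3′ over 5′ difference of the Gapdh control probe sets, a sign of RNA length, was 0.56 on ITD613, against 0.34, 0.31, 0.30 and 0.59 on ITD78, ITD598, ITD602 and ITD611. In these bulk samples, fewer cells of a type and less RNA per cell cannot be told apart, and the part of lineage genes and of RNA length in the chaperone values was not tested.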

How the data were processed

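Each of the 5 arrays was deposited as log2 values per probe set. The authors used RMA, per the submitters' processing notes, a method that corrects background, equalizes the arrays and summarizes probes. Its version, the software and the probe set definition are not given in the sources used here. From the values alone the base was taken as 2, and their zero point is unknown, so only differences within a probe set were compared. Of 45101 probe sets, 34945 had a single gene symbol in the platform annotation and were not controls, 932 had several symbols and 9160 were unnamed here, and 0 columns were left without a sample. The 35 members and all gene lists were chosen with earlier results of these data known. A gene was represented by its brightest probe set and kept where its highest value reached 2.75 (60th percentile). With 1 array per construct no test was possible. Each array was set against the mean of the other 4, and members were counted past 0.5 or 1 (log2) beside the same count over 9621 genes. All 35 members are named. Of each other pathway list, up to 4 genes ranging over at least 1 are named, with Ern1, Eif2ak3, Atf4 and Ddit3 always. Of 103 such genes 99 had a probe set, 3 of them under a newer RefSeq symbol (GRCm38.p6), and 88 were kept. Precision is limited by the number of arrays. Calculations used Python 3.11.15 and pandas 2.3.3 and were tested on simulated data. Alternative settings changed the probe set rule, the filter, low values, centring, the summary of the other arrays and the arrays included. Amino acid sequences were not used here.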

Additional observations from a re-analysis of the deposited data

How the results depend on the processing

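Of 88 recomputed counts of members, 76 stayed within 1.5 times. Of 110 recomputed medians, 78 kept their sign and stayed within 1.5 times, those of the ER group on ITD613 (-0.35 to -0.24) and of the heat shock group on ITD611 (0.12 to 0.20) under all 11 alternatives each. Both medians were identical with low values raised, with no filter and with a stricter filter (75th percentile). All 22 ER members pass these filters and lie above 3.74 on every array, so these settings could not change the ER results. The totals given here include such settings. When all probe sets of a gene were averaged, dim ones included, 5 ER members and 1 heat shock member were at least 0.5 lower on ITD613, 3 heat shock members ranged over 0.5 and 2 ER members over 1, and Hspa4 reversed to 0.22. The heat shock medians were then 0.036 on ITD613, -0.072 on ITD78, 0.051 on ITD598 and -0.068 on ITD602. Without probe sets ending in _x_at, _s_at or _a_at, 5 of the 18 ER members left were at least 0.5 lower, the ER medians were 0.0093 on ITD78, 0.11 on ITD602 and 0.032 on ITD611, and the heat shock medians were -0.18 on ITD613 and 0.093 on ITD602. With arrays centred, the ER median on ITD78 was 0.0023 and the heat shock medians were -0.14 on ITD613 and 0.011 on ITD602. Against the median of the other arrays, the ER medians were -0.091 on ITD78 and 0.070 on ITD611, and the heat shock median on ITD613 was -0.11. With no filter, which adds Hspa1a and Hspa1b and so gives 11 heat shock members, the median of that group on ITD598 was 0.082. The causes of the other changes were not tested. Leaving out 1 array at a time gave ER medians of -0.16 to 0.0094 on ITD78, -0.019 to 0.10 on ITD598, 0.17 to 0.31 on ITD602 and 0.011 to 0.20 on ITD611. The heat shock medians were then -0.14 to -0.027 on ITD613, 0.059 to 0.18 on ITD598 and -0.090 to 0.067 on ITD602. It also gave 5 to 12 ER members and 0 to 5 heat shock members ranging over 0.5, 1 to 4 ER members ranging over 1, and 1 to 2 heat shock members at least 0.5 lower on ITD613. The lowest of these counts came without ITD613, except that 1 ER member ranged over 1 also without ITD602, and the count of 1 lower heat shock member came without ITD598, ITD602 or ITD611. For single genes, 20 of 432 recomputed ITD613 differences moved by more than 0.18, the SD over all genes between the closest pair of arrays, with Atf6 and Sel1l turning negative when probe sets were averaged, and 1 reversed. No paired analysis was possible because each construct has 1 array. Values up to 3.74 can be shared by 100 or more probe sets of an array, so differences among them are not sized.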
